A study of Mus musculus with 2 samples.

Results

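The 10 genes described here are Jchain and 9 factors, enzymes and surface proteins of plasma cells: Xbp1, Prdm1, Irf4, Sdc1, Fkbp11, Tnfrsf17, Mzb1, Cd28 and Slamf7. They were selected by gene name, with their knock-out over wild-type ratios on these arrays already known. Those ratios are therefore given as a description, with no test on a member. The arrays hold 14 probes for them among 41174 distinct probes, and all 10 genes have a probe, out of 27597 gene names. Jchain is listed under its older symbol Igj and Mzb1 under 2010001M09Rik. Of the 10 genes, 8 had a probe well above background in a genotype on both arrays and are among the 17685 genes tested. Tnfrsf17 and Cd28 were not.

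The B cells were sorted by flow cytometry from peripheral lymph nodes of Ccr7 knock-out mice (strain B6.129P2(C)-Ccr7tm1Rfor/J) and of wild-type C57BL/6J mice, and were not cultured. The markers used for the sort and the age of the mice are not given in the sources used here. RNA of 12 sorted samples, 6 per genotype, was combined in pools of 3, and each of 2 two-colour arrays compared 1 knock-out pool with 1 wild-type pool. The knock-out RNA carried Cy5 on array 1 and Cy3 on array 2. Every mean below rests on n = 2 arrays, each with its own pools, and its SD includes any dye effect. Dye orientation and pool cannot be told apart.

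The share of spots well above background was 68.2% for the knock-out and 63.1% for the wild-type pool on array 1. For the separate knock-out and wild-type pools on array 2 it was 58.4% and 68.8%. The targeted gene had log2 levels of 11.44 and 11.66 in the knock-out pools on arrays 1 and 2, and 12.55 and 12.40 in the wild-type pools. Its mean log2 ratio was -0.93 ± 0.27 (SD, n = 2), lower on both arrays, and whether the Ccr7 probe lies in the deleted part is not known here. All 12 B cell markers examined, among them Pax5 and Cd72, were well above background in every channel. Their knock-out over wild-type ratios were above 0 on both arrays for 3, below for 2 and of opposite signs for 7. Over all genes tested, 24.2% were above 0 on both arrays and 30% below. The log2 of their summed levels was 19.33 and 18.82 in the knock-out pools and 18.73 and 19.30 in the wild-type pools, so its direction turned with the array. In 10 of the 12 a channel was scaled up from a weaker scan, described below. In pooled RNA, fewer cells of a type and less RNA per cell cannot be told apart.

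Plasma cells are the antibody-secreting end stage of the B lineage. Irf4 and Prdm1 encode transcription factors that start and fix this fate, and Prdm1's product Blimp-1 shuts down B-cell genes such as Pax5. Xbp1 then expands the endoplasmic reticulum and its secretory apparatus, in which Fkbp11 and Mzb1 help proteins fold and assemble. Jchain encodes the joining chain that links IgM and IgA into polymers. Syndecan-1 (Sdc1), BCMA (Tnfrsf17), CD28 and SLAMF7 are surface proteins found on plasma cells, and Cd28 and Slamf7 are also made by other leukocytes.

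The probes behind the results below are shown because each level in this account is a hybridization to 1 such 60-base sequence. Jchain was measured by a pair of probes on chromosome 5, minus strand of mm8, and the first 30 bases of each are printed. The brighter Jchain probe lies at chr5:89595455-89595514 and the dimmer at chr5:89595625-89595684. The probes of Xbp1 (chr11:5424970-5425029, plus strand), Fkbp11 (brighter probe, chr15:98554525-98554584, minus strand) and Slamf7 (brighter probe, chr1:173475843-173475902, minus strand) are printed whole, 5′ to 3′. No annotation of mm8 was at hand to place these windows in exons.
Jchain brighter probe: ctgtactagtctttctcttaacctctcact
Jchain dimmer probe: gtaaatcctcatgtctgctcaaggagatat
Xbp1 probe: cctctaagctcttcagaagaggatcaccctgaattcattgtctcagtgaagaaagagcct
Fkbp11 brighter probe: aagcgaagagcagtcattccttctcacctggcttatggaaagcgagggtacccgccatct
Slamf7 brighter probe: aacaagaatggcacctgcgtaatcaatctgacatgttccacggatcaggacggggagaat

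Jchain had the widest gap between the genotypes among the 8 measured genes. Its brighter probe had log2 levels of 10.34 and 11.34 in the knock-out pools on arrays 1 and 2, against 8.44 and 9.62 in the wild-type pools. Both knock-out pools lay above both wild-type pools, although both genotypes read higher on array 2. The log2 ratios (knock-out over wild-type) were 1.89 and 1.72, averaging 1.81 ± 0.12 (SD, n = 2), which is 3.50-fold higher. The dimmer probe repeated the pattern, with 9.91 and 11.22 in the knock-out pools and 7.90 and 9.23 in the wild-type pools. Its ratios were 2.01 and 1.99, or 3.998-fold higher on average. Both probes were well above background in all channels, and neither needed the low-gain scan, a weaker scan whose values, scaled up, replace those of the brightest spots. By mean ratio Jchain stood at rank 3 of the 17685 genes.

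**Figure D1:**
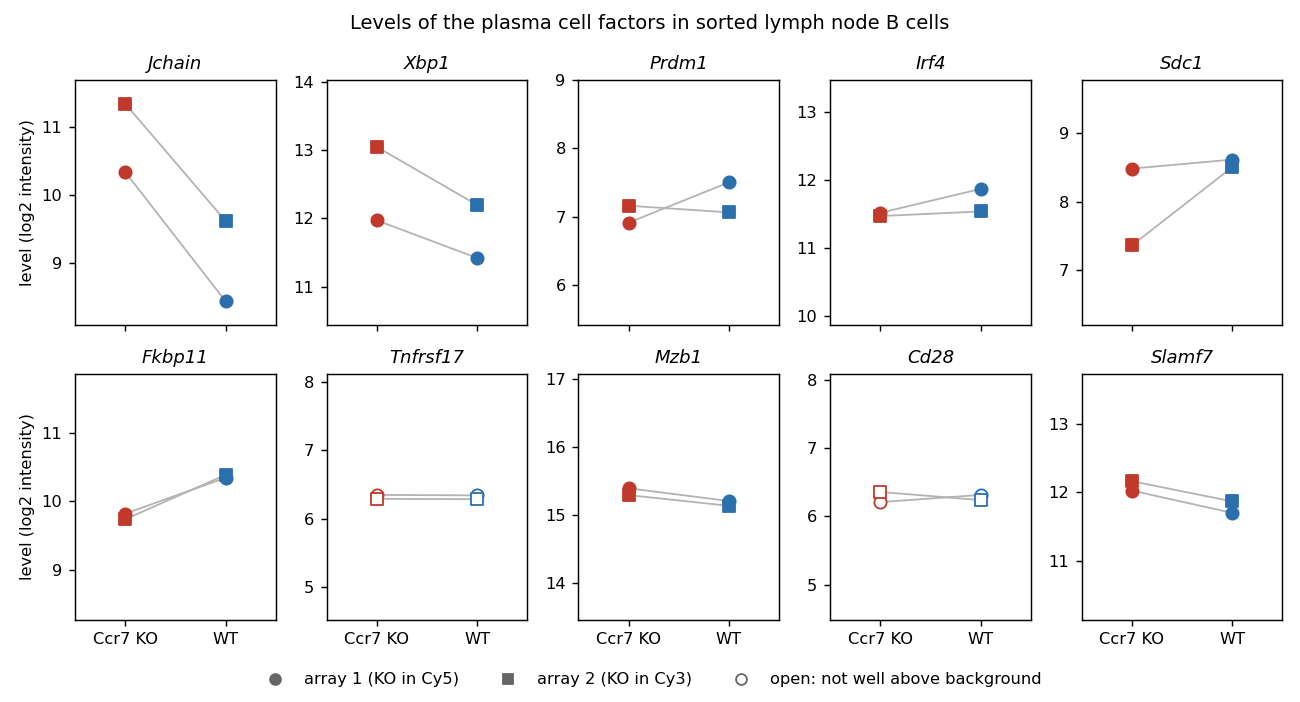
Normalized log2 intensity (vertical axes, each spanning the same range) of the 10 genes in Ccr7 knock-out (KO, left) and wild-type (WT, right) pools, for the probe that represents each gene, and the 10-spot probe for Cd28. Grey lines join the pools of 1 array. Jchain is higher in both knock-out pools (10.34 and 11.34) than in the wild-type pools (8.44 and 9.62), and the open symbols of Tnfrsf17 and Cd28 mark levels not well above background.

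Of the transcription factor genes, Xbp1 had the higher ratio. Its log2 levels were 11.97 and 13.05 in the knock-out pools and 11.42 and 12.20 in the wild-type pools. Within each array the knock-out was higher, but the groups overlapped, since the wild-type pool of array 2 was above the knock-out pool of array 1. The ratios were 0.55 and 0.85, with a mean of 0.70 ± 0.21 (SD, n = 2), or 1.63-fold higher. Xbp1 RNA is cut by the stress sensor IRE1 to make the active factor, and 1 value from 1 probe does not separate the cut from the uncut form. The gene shares chromosome 11 with Ccr7, at a distance of 93.5 Mb on mm8.

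Prdm1 was dim in both genotypes. Its raw intensities were 142 and 133 in the knock-out pools and 213 and 149.9 in the wild-type pools, over local backgrounds of 48.5 to 54.5. The log2 levels were 6.91 and 7.16 in the knock-out pools and 7.503 and 7.06 in the wild-type pools, so the groups overlapped. The ratios had opposite signs, -0.59 on array 1 and 0.10 on array 2, and the mean of -0.25 ± 0.49 (SD, n = 2) was smaller than its spread.

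Irf4 had log2 levels of 11.52 and 11.47 in the knock-out pools and 11.87 and 11.54 in the wild-type pools. Both knock-out values lay below both wild-type values, but narrowly. The knock-out pool of array 1 (11.52) was just below the wild-type pool of array 2 (11.54). The ratios were -0.35 and -0.07, with a mean of -0.21 ± 0.20 (SD, n = 2), about the size of its spread.

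Among the surface proteins, Sdc1, the syndecan by which plasma cells are usually identified, had log2 levels of 8.48 and 7.36 in the knock-out pools and 8.62 and 8.51 in the wild-type pools. The low value came from the knock-out pool of array 2, with a raw intensity of 139.7 over a local background of 52.5, whereas the other 3 pools were close together. The ratios were -0.13 and -1.15, with a mean of -0.64 ± 0.72 (SD, n = 2), smaller than its spread. Tnfrsf17, the receptor BCMA for the survival ligands BAFF and APRIL, was not well above background in any channel. Its raw intensities were 88.3 and 93.4 in the knock-out pools and 94.7 and 89.0 in the wild-type pools, so no fold is given.

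Cd28 was likewise not well above background on either array, by either of its probes. One probe is printed as 10 spots across each array, of which 2 on array 1 were left out for an outlier flag. The used spots averaged raw intensities of 82.2 and 100.2 in the knock-out pools and 97.0 and 86.0 in the wild-type pools. The other Cd28 probe, built on a cDNA clone, had 73.7 and 82.8 in the knock-out pools and 73.3 and 76.6 in the wild-type pools. In both genotypes the channel labelled with Cy3 had the higher raw intensity at the 10-spot probe. Its ratios turned sign between the arrays, -0.11 on array 1 and 0.12 on array 2, where dye and pool cannot be told apart. The other probe had the reverse signs, 0.19 on array 1 and -0.12 on array 2.

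Slamf7, a receptor of the SLAM family, gave different answers by probe. The brighter probe had log2 levels of 12.03 and 12.17 in the knock-out pools and 11.70 and 11.87 in the wild-type pools, with no overlap. Its ratios of 0.33 and 0.30 had a mean of 0.31 ± 0.02 (SD, n = 2), or 1.24-fold higher. The dimmer probe had 10.44 and 9.88 in the knock-out pools and 10.48 and 10.09 in the wild-type pools, with ratios of -0.04 and -0.22. The mean of both probes was 0.09, so the direction of Slamf7 rests on which probe is read. With no within-array normalization the brighter probe had a mean of -0.21, where the median of all genes was at -0.39.

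The genes of the endoplasmic reticulum went different ways. Fkbp11, a peptidyl-prolyl isomerase of the secretory pathway, had log2 levels of 9.82 and 9.74 in the knock-out pools and 10.35 and 10.39 in the wild-type pools. The pools of each genotype lay close together and did not overlap with the other genotype. The ratios were -0.53 and -0.65, with a mean of -0.59 ± 0.09 (SD, n = 2), or 1.505-fold lower. Its dimmer probe gave -0.56 and -0.67, with the knock-out channel well above background on 1 of 2 arrays. Fkbp11 thus had the lowest mean ratio after Sdc1, and the narrower spread of the pair.

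Mzb1, a chaperone partner in the assembly of IgM and also made by marginal zone and B1 cells, was bright in both genotypes. Its log2 levels were 15.39 and 15.29 in the knock-out pools and 15.20 and 15.13 in the wild-type pools. The knock-out pools were higher by a small margin, with ratios of 0.19 and 0.16 and a mean of 0.17 ± 0.02 (SD, n = 2), or 1.13-fold. Mzb1 has 10 spots on each array, whose ratios ran from 0.11 to 0.24 on array 1 and from 0.12 to 0.21 on array 2. The knock-out channel was scaled up from the low-gain scan at 10 spots of array 1 and 7 of array 2, and the wild-type channel at all 10 of both. With median centring the mean was -0.10 and with no within-array normalization -0.32, where the medians of all genes were -0.17 and -0.39. Relative to those medians it was 0.08 in both.

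**Figure D2:**
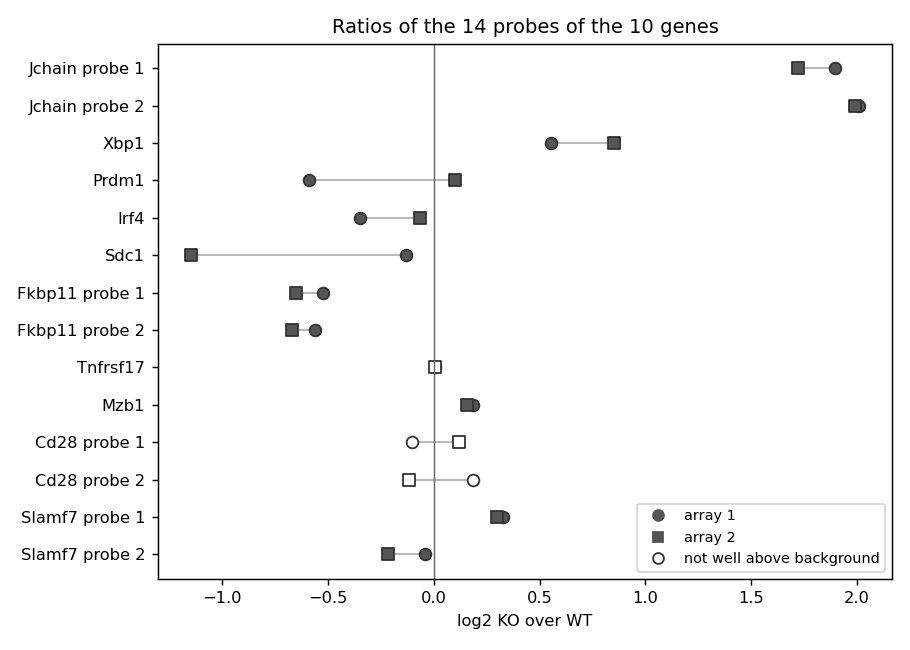
Knock-out over wild-type log2 ratio (horizontal axis) for each of the 14 probes of the 10 genes, with circles for array 1 and squares for array 2. Open symbols mark probes not well above background in either genotype. The probes of Jchain and of Fkbp11 agree within each gene, those of Slamf7 lie on opposite sides of 0, and the arrays differ most for Sdc1 (-0.13 and -1.15).

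Limma's fit over all 17685 genes called 12 genes higher in the knock-out (0.0679% of genes) and 6 lower (0.0339%) at an adjusted p of 0.05. That balance turned in other settings, to 26 higher and 47 lower under a robust prior that follows intensity, and to 35 higher and 63 lower with low-gain genes left out. Of the 8 measured plasma cell genes, Jchain was called higher and none lower. Since the contrast had chosen the genes, nothing is read from that count. Ratios were above 0 on both arrays for 4 genes (Jchain, Xbp1, Mzb1 and Slamf7) and below 0 on both for 3 (Irf4, Sdc1 and Fkbp11). Prdm1 had opposite signs. Over all genes these shares were 24.2% and 30%. Both knock-out levels lay above both wild-type levels for Jchain, Mzb1 and Slamf7, against 9.56% of all genes, and below them for Irf4, Sdc1 and Fkbp11, against 13.3%. The median ratio of the 8 genes was -0.02 and that of all genes -0.01.

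**Figure D3:**
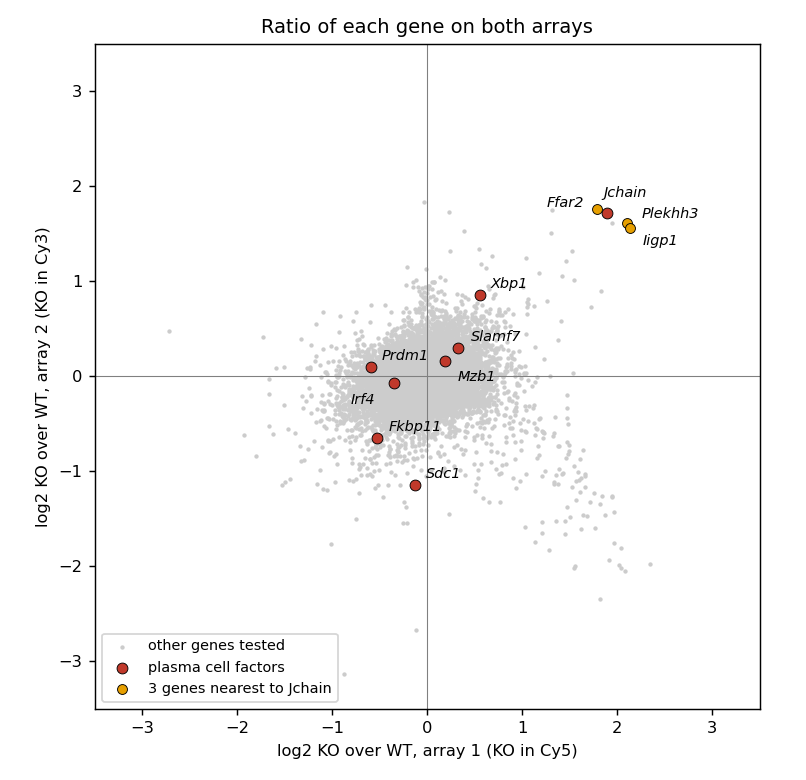
Knock-out over wild-type log2 ratio on array 1 (horizontal) against array 2 (vertical) for all 17685 genes tested (grey), the 8 measured plasma cell genes (red) and the 3 genes with a proper symbol nearest to Jchain (orange). Jchain lies far from the other plasma cell genes, at 1.89 and 1.72, and Xbp1 is next at 0.55 and 0.85.

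The genes whose pair of ratios lay nearest to that of Jchain were sought among 13893 other genes with a proper symbol, by Euclidean distance over 2 arrays. Ffar2, which encodes a fatty acid receptor, was nearest, at a distance of 0.12 with ratios of 1.78 and 1.76. Plekhh3 followed at 0.23, with ratios of 2.10 and 1.61. Iigp1, an interferon-inducible GTPase, was at 0.29, with ratios of 2.13 and 1.56. None of these 3 is among the plasma cell genes or their related lists. With 2 arrays such a likeness is a description only.

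Further genes of the plasma cell programme were taken from lists by role, and none of their members passed limma's adjusted threshold over all genes in either direction. At an unadjusted p of 0.05, 557 of all 17685 genes were higher and 1056 lower, the share beside which the list counts below stand. Of 40 genes of the secretory apparatus and its stress response, all were measured, with 1 higher and 1 lower at that level and a median ratio of 0.09. In this list 17 genes were above 0 on both arrays and 7 below, against 24.2% and 30% of all genes, and 16 had opposite signs. Ssr2, a subunit of the translocon-associated complex, had ratios of 0.61 and 0.47. Ckap4, a membrane protein of the rough endoplasmic reticulum, had -0.80 and -0.33.

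Of 28 other regulators and surface markers of plasma cells, 27 were measured, with a median ratio of 0.00. At an unadjusted p of 0.05, 3 were higher and 2 lower. Eaf2, a partner of the elongation factor Ell2, had ratios of 0.62 and 0.69. Bhlha15, the secretory-cell transcription factor Mist1, had -0.74 and -0.51. These stood on opposite sides of 0, as Xbp1 and Fkbp11 did.

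Of 21 B-cell genes that Blimp-1 is known to repress directly or through the plasma cell fate, all were measured and the median ratio was 0.17. Of these, 8 were above 0 on both arrays and 1, Pax5, was below, while 12 changed sign from array 1 to array 2. Over all genes, 24.2% were above 0 on both arrays and 30% below. At an unadjusted p of 0.05, 3 of the 21 genes were higher and 1 lower. Pax5, the factor that holds B-cell identity, had ratios of -0.79 and -0.86. In 16 of the 21 genes, Pax5 among them, a channel was scaled up from the low-gain scan.

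J chain acts with immunoglobulin chains and with receptors of polymeric antibody, but of 15 such genes listed 5 were found by name on the array and 4 were measured. At an unadjusted p of 0.05, 0 were higher and 1 was lower. Pigr, the receptor that carries J chain-bearing IgA and IgM across epithelia, had ratios of -0.44 and -0.29. Cd5l, a protein that binds IgM pentamers, had 0.35 and 0.12. Ighm, the heavy chain of IgM, chosen after its values were seen, had 1.82 on array 1 and -2.35 on array 2 with scaled-up channels, so it gave no direction.

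Of 19 ligands and relatives of BCMA, CD28 and SLAMF7, 14 were measured, with a median ratio of -0.02. At an unadjusted p of 0.05, 1 was higher and 3 were lower. Slamf9 had ratios of -0.82 and -0.77, and Cd244a, another SLAM-family receptor, had -0.49 and -0.56. Of 21 genes for signals that start plasma cell differentiation, all were measured, with a median of 0.11, and 2 were higher and 1 lower at that level. Mki67, a marker of cycling cells, had 1.13 and 0.31, and the NF-kB subunit gene Rel had -1.03 and -0.45.

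**Figure D4:**
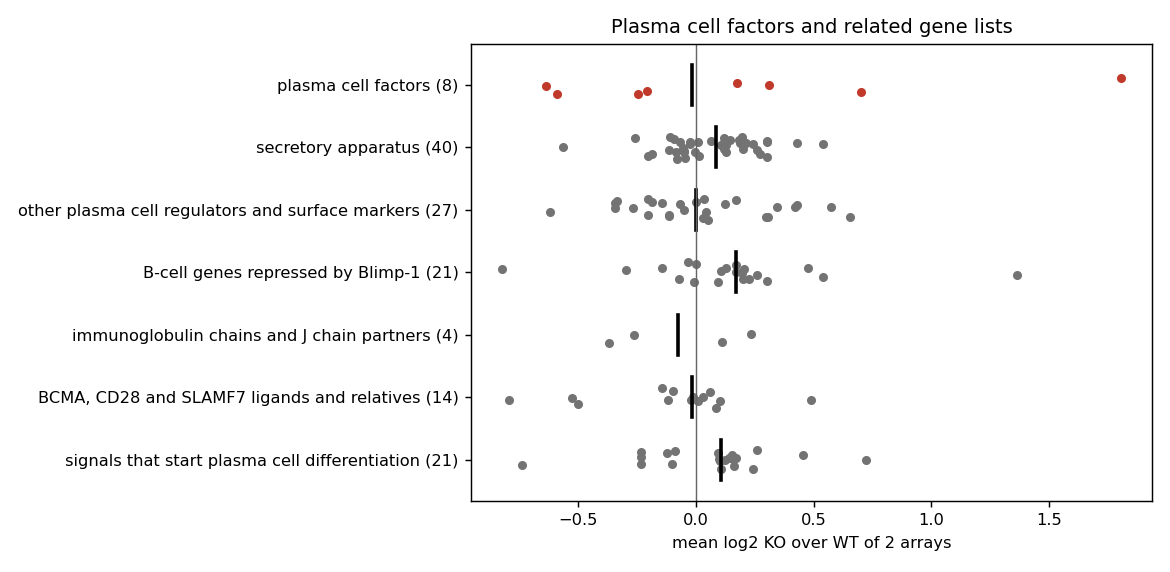
Mean knock-out over wild-type log2 ratio (horizontal axis) for each measured gene of the plasma cell factors (red) and of 6 related lists (grey), with the number measured in parentheses and a black bar at each median. Medians lie between -0.08 and 0.17, and Jchain at 1.81 is the point farthest to the right.

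Markers of other cells that the sort could hold were measured beside these genes, since T cells make Cd28 and natural killer and dendritic cells make Slamf7. Of 18 T cell markers, 17 were measured, with a median ratio of -0.12. Of these, 2 were above 0 on both arrays and 9 below, against 24.2% and 30% of all genes. By limma's unadjusted p of 0.05, 0 were higher and 6 lower, against 557 and 1056 of all 17685 genes. The log2 of their summed levels was 14.71 and 14.70 in the knock-out pools and 14.70 and 14.73 in the wild-type pools. The bright probes of Cd2 and Lck made up 80.7% and 82.6% of that sum in the knock-out pools and 80.2% and 80.8% in the wild-type pools, so it says little of the dimmer markers. Without that pair the sum was 12.34 and 12.17 in the knock-out pools and 12.36 and 12.34 in the wild-type pools. Thy1 had ratios of -0.93 and -0.63 and Cd3d -0.56 and -0.63.

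Of 11 natural killer cell markers 7 were measured, with a summed level of 10.17 and 9.94 in the knock-out pools and 10.17 and 10.06 in the wild-type pools. Klrd1 had ratios of -0.41 and -0.74 and Prf1 0.41 and 0.33. Of 16 myeloid and dendritic cell markers 11 were measured, with a summed level of 13.32 and 12.75 in the knock-out pools and 12.48 and 13.30 in the wild-type pools. Lyz2, the lysozyme gene of macrophages, made up 76.6% and 71.9% of the sum in the knock-out pools and 58.5% and 74.5% in the wild-type pools, and its ratios were 1.22 and -0.60. Without Lyz2 the sum was 11.22 and 10.92 in the knock-out pools and 11.22 and 11.33 in the wild-type pools. Adgre1 had -0.29 and -1.14 and S100a9 0.92 and 0.00. Of 12 stroma and endothelium markers 9 were measured, with a summed level of 11.62 and 11.77 in the knock-out pools and 11.66 and 11.79 in the wild-type pools. Pecam1 made up 59.3% and 61.8% of it in the knock-out pools and 62.0% and 65.7% in the wild-type pools. Col1a2 had 0.54 and 0.24 and Cdh5 -0.38 and -0.04. The part of such cells in the ratios of the plasma cell genes was not tested.

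Promoter windows of 250 bases before to 50 bases after the start, from RefSeq on GRCm38.p6, were matched for 8 of the 10 genes by symbol. Cd28 and Mzb1 were not matched. Those of Jchain and Xbp1, with the highest ratios, and of Fkbp11, with a lower level in the knock-out, are printed. Capitals mark, on either strand, TATAAA (the TATA box), ATGCAAAT (the octamer of immunoglobulin promoters), CCAAT (the CCAAT box) and CCACG (a part of the element bound by ATF6 and Xbp1 factors).
Jchain promoter (chr5:88527848-88528147, minus strand): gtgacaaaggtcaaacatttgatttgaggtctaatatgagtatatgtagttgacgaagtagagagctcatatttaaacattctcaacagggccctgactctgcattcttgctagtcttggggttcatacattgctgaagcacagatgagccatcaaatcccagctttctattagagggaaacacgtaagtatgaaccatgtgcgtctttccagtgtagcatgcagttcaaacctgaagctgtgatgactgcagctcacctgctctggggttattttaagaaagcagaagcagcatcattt
Xbp1 promoter (chr11:5520391-5520690, plus strand): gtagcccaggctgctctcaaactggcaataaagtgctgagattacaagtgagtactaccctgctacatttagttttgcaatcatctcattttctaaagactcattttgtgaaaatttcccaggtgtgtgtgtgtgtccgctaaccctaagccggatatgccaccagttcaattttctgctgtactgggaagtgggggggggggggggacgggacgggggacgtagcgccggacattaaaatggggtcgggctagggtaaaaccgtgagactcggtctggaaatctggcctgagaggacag
Fkbp11 promoter (chr15:98727578-98727877, minus strand, 1 of 2 starts): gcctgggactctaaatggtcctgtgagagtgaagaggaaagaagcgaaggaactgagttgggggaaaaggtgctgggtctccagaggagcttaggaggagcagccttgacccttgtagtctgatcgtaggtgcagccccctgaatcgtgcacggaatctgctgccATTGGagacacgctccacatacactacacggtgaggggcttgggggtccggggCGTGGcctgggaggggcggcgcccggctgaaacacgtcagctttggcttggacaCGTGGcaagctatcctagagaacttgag

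The Jchain and Xbp1 windows held none of these letters. The printed Fkbp11 window held the CCAAT box from -85 to -81, and CCACG from -32 to -28 and from 23 to 27, all on the minus strand relative to the gene. The window at the other Fkbp11 start, not printed, held none of these letters. Fkbp11 is counted below if either window matched, whereas the shares are per window. Of the 8 genes, CCACG occurred in 4 (Prdm1, Irf4, Sdc1 and Fkbp11), against 32.8% of all 32851 promoter windows. The CCAAT box occurred in 3, against 37.4%, the TATA box in 2 (Irf4 and Tnfrsf17), against 13.6%, and the octamer in 0, against 1.74%. ACGTGG, the core bound by the spliced Xbp1 factor, overlaps CCACG and occurred in Fkbp11 alone, from 22 to 27, against 8.31% of windows.

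Motifs bound by interferon regulatory factors such as Irf4 and by Blimp-1 were searched likewise. GAAA set 2 bases before another GAAA, the interferon-stimulated element, occurred in Tnfrsf17 alone, against 3.44% of windows. GGAA set 2 bases before GAAA, the composite site of Irf4 with Ets factors, occurred in 0 of 8, against 2.72%, and AGNGAAAG, the Blimp-1 core, in 0 of 8, against 8.63%. The CCAAT box with CCACG 9 bases later, the full stress response element, occurred in 0 of 8, against 0.119%. A match says only that these letters stand in the window.

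Under 12 other processing settings the Jchain mean lay between 1.33 and 1.98 and was above 0 in all 12, and Xbp1 lay between 0.16 and 0.73. Settings that change only the gene filter or variance model, or treat each probe as a feature, cannot move these means. They left Jchain at 1.81 and Xbp1 at 0.70, as reported. The scanner log ratio and the value table also gave the same Jchain mean, 1.98. The 12 settings are therefore not independent checks of direction. Fkbp11 stayed between -1.06 and -0.58, Sdc1 between -0.94 and -0.56, Irf4 between -0.72 and -0.19 and Prdm1 between -0.45 and -0.21, all below 0. Mzb1 and Slamf7 crossed 0, as given above. The ends at 1.33 for Jchain, 0.16 for Xbp1, -1.06 for Fkbp11, -0.94 for Sdc1 and -0.72 for Irf4 came from arrays with no within-array normalization, where the median of all genes was -0.39. Relative to the median of all genes in each setting, Jchain lay between 1.72 and 1.98, Xbp1 between 0.56 and 0.73 and Fkbp11 between -0.66 and -0.57. On that scale Irf4 lay between -0.32 and -0.19, Sdc1 between -0.89 and -0.55, and Prdm1 between -0.46 and -0.04, close to 0 at its upper end. Jchain was called higher by limma in 5 of these settings besides the one reported and was not in 7.

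**Figure D5:**
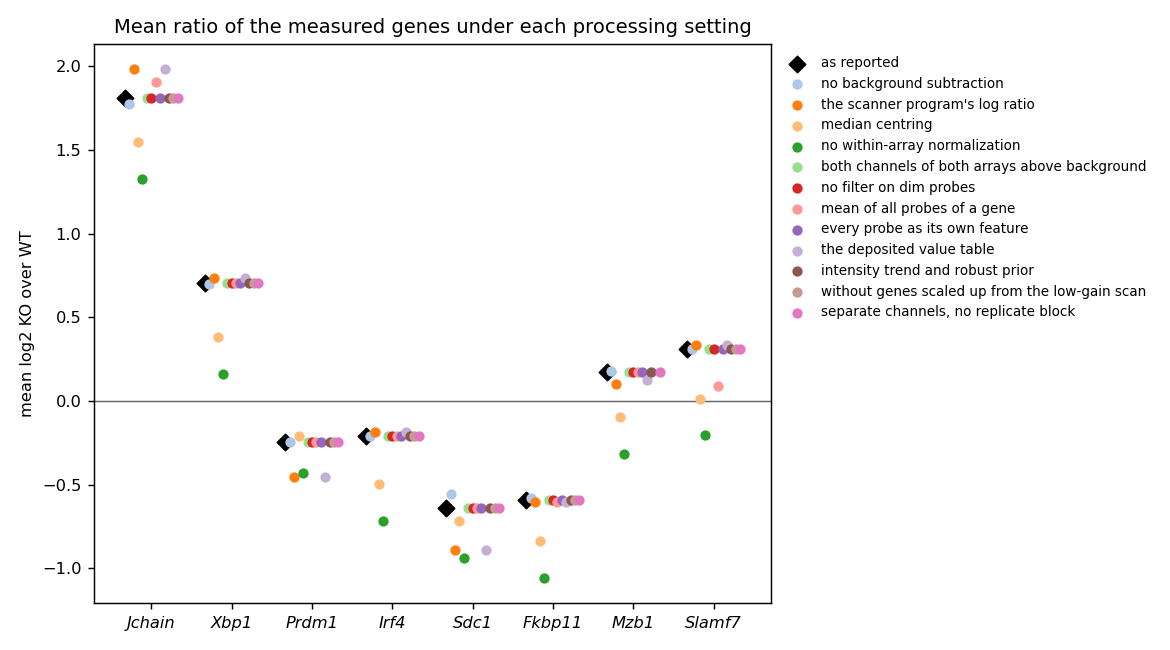
Mean knock-out over wild-type log2 ratio (vertical axis) of the 8 measured genes as reported (black diamonds) and under 12 other processing settings (coloured points). Jchain keeps the highest mean in every setting shown, and Mzb1 and Slamf7 fall on both sides of 0. Settings that change only the gene filter or variance model, or treat each probe as a feature, repeat the reported means.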

How the data were processed

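Both arrays lay on 1 slide and were quantified by the authors in Agilent Feature Extraction 9.5.3.1, per the file headers. The deposited scanner files hold intensity values (spot mean and median local background per colour) and a log10 ratio of Cy5 over Cy3 made by that program. The deposited value table holds log2 ratios, which match the scanner ratio, signed so that the knock-out is on top, within 0.001 at 42512 and 42515 of 43379 spots. The making of the others is not described in these sources.

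Intensities were corrected with normexp (offset 50) and normalized by loess within arrays (span 0.3, 4 iterations, giving 1639 control spots weight 0), using limma 3.58.1 and R 4.3.3. Flagged spots were left out and spots of a probe averaged. Levels are log2 intensities per channel after Aquantile scaling. They compare genotypes within a probe, not genes. Dim probes have ratios shrunk by the offset. Names came from RefSeq accessions, symbols and synonyms. The brightest probe stands for a gene.

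Ratios were fitted with lmFit and eBayes over all genes (1 residual and 6.19 prior degrees of freedom), two-sided, with Benjamini-Hochberg adjustment at 0.05. The number of arrays limits precision. The p-values rest on the spread between 2 pool pairs, moderated toward a prior spread taken from all genes. That prior holds most of the degrees of freedom. The genes, lists and settings were chosen with earlier results of these data known. Named beside the 10 genes are Ccr7, the 3 nearest to Jchain and, per list, up to 4 called genes, otherwise the 2 with the largest mean ratio in the same direction on both arrays, except for 1 gene that is not reported here. Ighm and the brightest genes of the marker sums (Cd2, Lck, Lyz2 and Pecam1) were added after their values were seen. The fit was also run on data simulated from its own fitted prior, with no dye effect and no low-gain scaling. That run therefore does not show how the fit performs on these arrays.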

Additional observations from a re-analysis of the deposited data

How the results depend on the processing

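Limma called 18 genes as reported, 1 of the plasma cell genes (Jchain) and 0 of the related lists. It called 0 genes and 0 plasma cell genes under 6 settings. At an unadjusted p of 0.05, 1571 genes passed without background subtraction, 1480 with the log ratio of the scanner software, 89 with unnormalized arrays, 1575 with probes averaged per gene, 1550 with the value table and 383 with separate channels (no replicate block, so that an array no longer pairs its channels), against 1613 as reported. The 18 genes were 12 higher and 6 lower. Median centring called 4 genes (3 higher and 1 lower) and 0 plasma cell genes. Requiring both channels of both arrays above background called 9 genes, 9 higher and 0 lower. With every probe as its own feature 31 probes were called (18 higher and 13 lower), 2 of them the Jchain probes. An intensity trend and robust prior called 73 genes (26 higher and 47 lower), with 2 plasma cell genes (Jchain and Xbp1) and 1 list gene (Pax5). Leaving out genes with low-gain values, 98 were called (35 higher and 63 lower), with 2 list genes, Slamf9 among them. The cause of these differences was not tested. Array 1 or array 2 alone gives each gene's own ratio with no test, from 1.72 to 1.89 for Jchain. Dim probes such as those of Prdm1 are limited by signal over background.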
